A study of Mus musculus with 41 samples.

Results

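The nuclear pore genes of the mouse hippocampus were read at every probe set whose platform annotation gave 1 gene symbol, where that symbol began with Nup and a digit or was Seh1l, Sec13, Aaas, Tpr, Ranbp2, Ndc1, Pom121 or Rae1. A probe set is a group of short array probes designed to read 1 transcript, though some can also match others. The rule found 67 probe sets of 26 genes, out of 18193 genes that had a probe set with 1 symbol. The rule itself used symbols and not the measured differences between mice, but the members were chosen with earlier results of these data known. The brightest probe set of a gene, by its mean over all 41 arrays, gave the gene's main value. Of the 67 probe sets, 49 were in the brighter part of the array that was tested, and they covered 25 of the 26 genes. Nup210l, a relative of the membrane protein Nup210, had 1 dim probe set and was not tested. The other 17 untested probe sets were dimmer second probe sets of tested genes. Tpr and Nup35 are not analysed here.

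The nuclear pore complex is the channel through which RNA and protein pass between nucleus and cytoplasm. Stacked rings of scaffold proteins (nucleoporins) are anchored in the nuclear envelope and carry filaments on the cytoplasmic side, a basket on the nuclear side, and a mesh of proteins rich in phenylalanine-glycine repeats in the central channel that transport receptors cross. In brain cells that no longer divide, the scaffold proteins are among the longest-lived proteins known, and some mobile nucleoporins, Nup98 among them, also bind chromatin away from the pore.

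All animals were male C57BL/6J mice, an inbred strain, with no mutation or drug, and each gave 1 hippocampal RNA sample on 1 array. Behavioural testing began at 10 weeks of age and ended at weeks 37 to 38, and RNA was taken 1 month later. The study placed each mouse by how it ranked in memory tests. Of the mice, 5 were consistently high, 12 consistently medium and 8 consistently low under both rankings, 14 were inconsistent, and 2 lacked complete data. The classes were therefore ranks within 1 strain. One inconsistent mouse (replicate 2) also carried a label as medium and was kept with the inconsistent mice. In the text below a level is log2(intensity + 16) after quantile normalization, a difference is the first group's mean minus the second's on that scale, and it understates the change of a dim gene. A level is not compared between probe sets, since probes bind with different strength.

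Before normalization the array medians ran from 22.4 (low replicate 5) to 55.2 intensity units, and after it pairs of arrays correlated at 0.949 to 0.993. All 8 hippocampal neuron markers were in the brighter part of the array. Choroid plexus markers, of which 10 of 11 were on the array, had a mean level of 6.04 in high mice (5.74 to 6.13), 7.05 in medium mice (5.79 to 9.24) and 7.24 in low mice (5.56 to 9.36), and none of the 11 arrays that stood above a gap in this level were from high mice. Medium replicate 9 stood apart from the other arrays: it was highest in striatum markers (8.74, next 7.86) and neocortex markers (9.29, next 8.28), lowest in hippocampal neuron markers (9.26, next 9.63), and had a 3′ minus 5′ signal of actin of 1.10 (next 0.61). Without it, the second Nup98 probe set gave -0.25 and Nup62 gave 0.28 in high minus medium, and 0 members passed in any comparison of high, medium and low mice. Spike-in control probe sets split the arrays into 3 groups of 8, 23 and 10, which held 0, 4 and 1 high, 2, 5 and 5 medium and 2, 4 and 2 low arrays. This spike-in grouping was made from the values, and the labels do not give it. The part of these differences in the results below was not tested, beyond the values given with them. In tissue RNA, fewer cells of a type and less RNA per cell cannot be told apart.

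None of the nuclear pore genes passed an adjusted p of 0.05 by limma, a moderated linear model fitted over all tested probe sets, in any comparison of mouse classes. In high minus low, 0 of 49 member probe sets passed, and 0.00888% of all 22519 tested probe sets did. At an unadjusted p under 0.05, 8 member probe sets were counted, 6 with the higher mean in high mice and 2 with the lower, which is 16.3% of the members against 8.16% of all probe sets tested. Without high replicate 4 that count was 3 of the 49 members, beside 1453 of all 22519 probe sets, where the main fit had 1837. In high minus medium, 0 members passed against 0.0311% of all, and 13 were under an unadjusted 0.05 (11 higher, 2 lower in high mice), 26.5% of the members against 13.2% of all. In medium minus low, 0 members passed, as did 0% of all probe sets, and 1 member was under an unadjusted 0.05, 2.04% against 3.10%. With 1 array left out that last count was 4 without low replicate 7, 3 without low replicate 6, 2 without low replicate 1 or medium replicate 12, and 0 without low replicate 3, 5 or 8, medium replicate 2, 3, 5, 8 or 11, or high replicate 4. Over all probe sets, 714 were under an unadjusted 0.05 in the fit with 4 members and 831 in that with 3. The fits with 2 had 756 and 816, those with 0 had 625 to 852, and the main fit had 698. The member count was 6 when the arrays bright in choroid plexus markers were left out, beside 1036 of all 22519 probe sets. The smallest adjusted p of any member was 0.269 for high minus low, 0.134 for high minus medium and 0.998 for medium minus low. The comparisons share arrays: high minus low and high minus medium use the same 5 high mice.

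At the main probe sets of the 25 tested genes the differences were small. The median difference was 0.06 in high minus low, with 17 of 25 genes above 0. Over all tested probe sets the median was 0.0051, and 52.1% were above 0. For the members it was 0.04 in high minus medium, with 18 of 25 genes above 0, beside 0.0053 and 51.9% over all. In medium minus low it was 0.006, with 16 of 25 genes above 0, beside -0.00027 and 49.9% over all. With 1 probe set per gene, the median over 11218 genes was 0.0037 in high minus low, -0.0014 in high minus medium and 0.0037 in medium minus low. Of all 49 member probe sets, 32 were above 0 in high minus low, 32 in high minus medium and 26 in medium minus low. Single differences ran from -0.19 (Nup54) to 0.30 (Nup210) in high minus low, from -0.18 (Ndc1) to 0.27 (Nup62) in high minus medium and from -0.14 (Nup98) to 0.14 (Nup210) in medium minus low. The plot of the main probe sets by place in the pore shows that genes on both sides of 0 occurred within most parts of the pore.

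**Figure D1:**
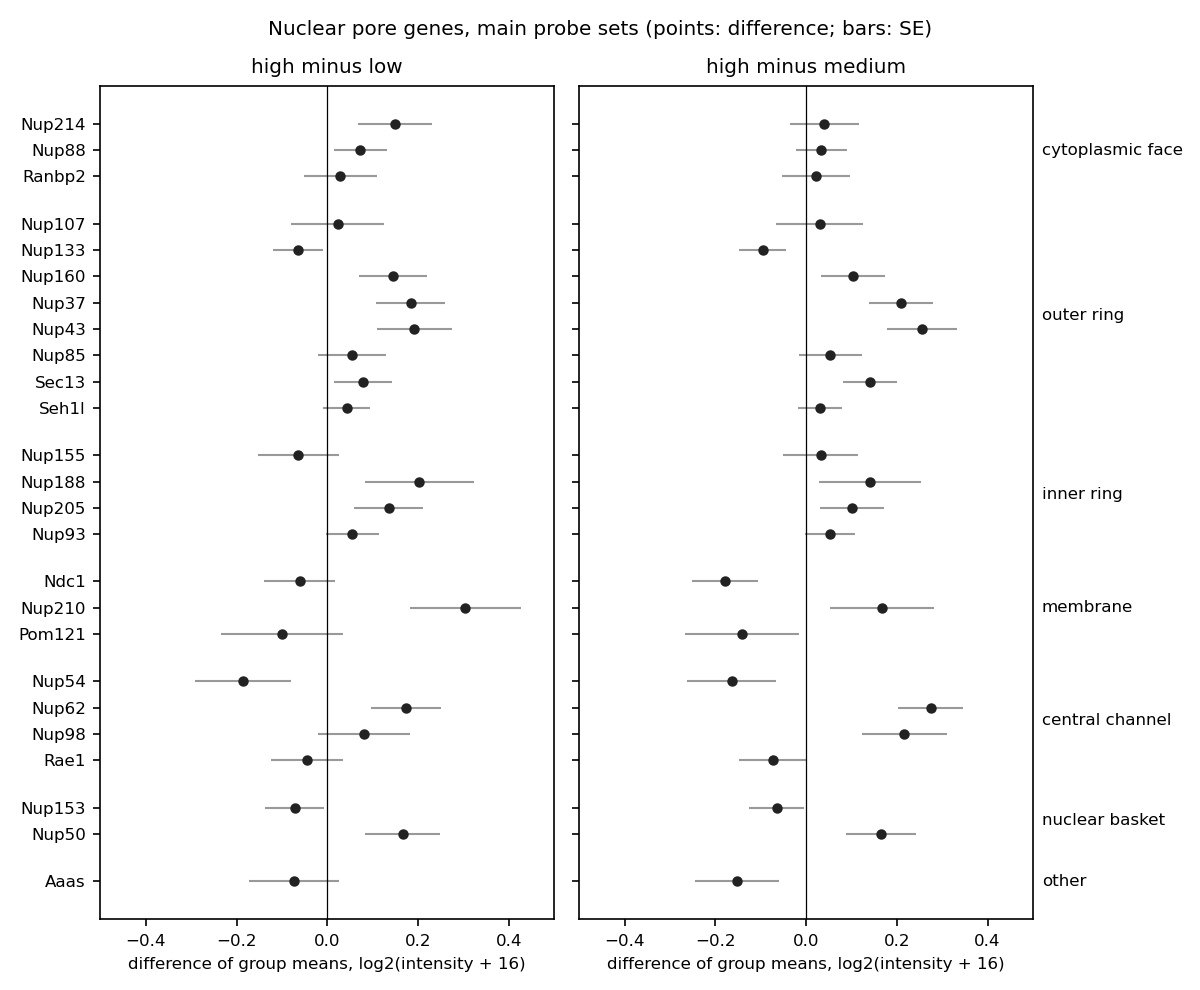
Difference of group means in log2(intensity + 16) at the main probe set of 25 nuclear pore genes, ordered by place in the pore, for high minus low (left) and high minus medium (right); points are differences and bars the SE from limma. In high minus low the points lie between -0.19 for Nup54 and 0.30 for Nup210, and none passed the adjusted threshold.

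Nup98 was described at both of its probe sets because an earlier reading of these data had named it. The protein lines the central channel, takes part in mRNA export together with Rae1, and is made from a precursor that also yields the scaffold protein Nup96. At its second probe set, 1439154_at, the 5 high mice had levels of 6.18, 6.54, 6.21, 6.40 and 6.61, against a lowest of 6.64, a median of 6.78 and a highest of 7.12 in low mice. Every high mouse thus lay below every low mouse. The difference was -0.41 ± 0.09 (SE), with an adjusted p of 0.269 by limma and a two-sided exact permutation p of 0.000777, the smallest that 5 against 8 mice can give. Medium mice lay between these groups in the mean, with a lowest of 6.37, a median of 6.66 and a highest of 6.81, and overlapped both. High minus medium was -0.26 ± 0.08 (SE, adjusted p = 0.185), and medium minus low was -0.15 ± 0.07 (SE, adjusted p = 0.998). Since this probe set was singled out from the same values, these p-values are no independent support. With the spike-in group as a block the high minus low difference was -0.41, and it was -0.31 in spike-in group 2 alone. In group 3 alone, which held only 1 high and 2 low arrays, it was -0.61. Leaving out the arrays bright in choroid plexus markers gave -0.45.

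The main probe set of Nup98, 1434220_at, did not follow this order. Its levels in high mice were 7.56, 7.49, 7.67, 7.63 and 7.88. Medium mice had a lowest of 7.07, a median of 7.43 and a highest of 7.62, and low mice a lowest of 7.26, a median of 7.54 and a highest of 8.06. All 3 groups overlapped, and the highest array of all was low replicate 5. High minus low was 0.08 ± 0.10 (SE, adjusted p = 0.875) and high minus medium was 0.22 ± 0.09 (SE, adjusted p = 0.327), so the 2 Nup98 probe sets had differences of opposite sign in high minus medium. Single arrays moved the small differences: high minus low was 0.15 without low replicate 5, 0.04 without low replicate 7 and 0.02 without high replicate 5. Medium minus low was -0.14 ± 0.08 (SE, adjusted p = 0.998), and -0.0662 without low replicate 5. The high minus low difference was -0.01 when arrays bright in choroid plexus markers were left out. It was also -0.01 in spike-in group 3 alone, where there was 1 high array. RefSeq places the genes Art1 and Pgap2 over the same stretch of chromosome 7 as Nup98, and which transcript each probe set reads was not analysed here, since no probe sequences were used.

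**Figure D2:**
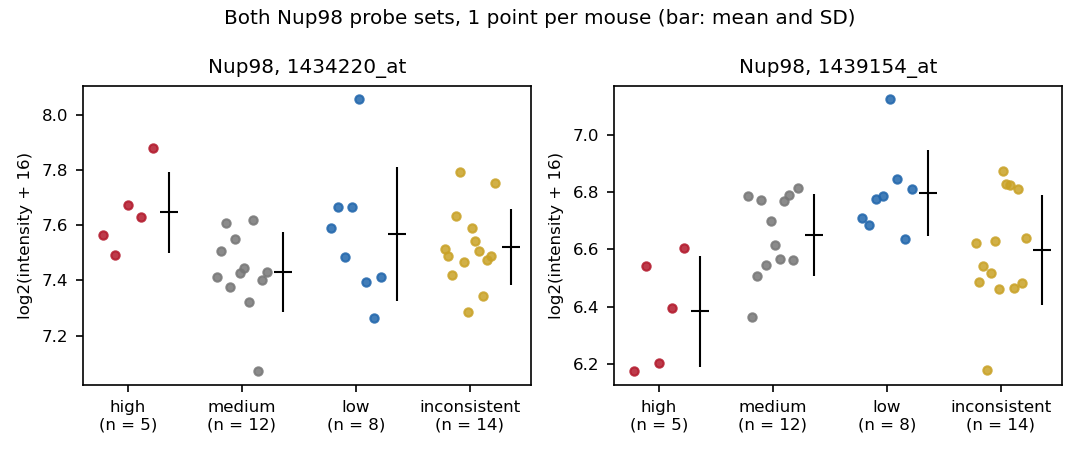
Level in log2(intensity + 16) of both Nup98 probe sets, 1 point per mouse, in high, medium, low and inconsistent mice, with the mean and SD as a bar beside each group. At 1439154_at the 5 high mice reach up to 6.61 and the 8 low mice start at 6.64, while at 1434220_at the groups overlap.

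Of all tested probe sets, 0.502% (113) had high and low arrays that did not overlap. Among the members there were 2 of 49, or 4.08%, which were the Nup98 probe set above and the second Nup153 probe set described with the nuclear basket. The members were chosen with earlier results of these data known, so this share is no independent support.

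The upstream sequences of Nup98, Nup62 and Nup37 are shown because these genes gave the widest probe set disagreement or were among the smallest unadjusted p-values in both comparisons with high mice, and have an entry in the RefSeq table. Each is the 250 bases before an annotated start, 5′ to 3′ on the gene's strand, from GRCm38.p6. Capitals mark matches on either strand to the CCAAT box, the GC box with its letters GGGCGG, the TATA box searched as TATAAA, an ETS site searched as CCGGAAGT or the NRF1 motif, and no matches overlapped in these 4 windows. Nup98 has 2 annotated starts, both shown, on the minus strand. Nup37 also has 2, and the second window, which overlaps the first, is not printed.
Nup98, first start, chr7:102210167-102210416, minus strand: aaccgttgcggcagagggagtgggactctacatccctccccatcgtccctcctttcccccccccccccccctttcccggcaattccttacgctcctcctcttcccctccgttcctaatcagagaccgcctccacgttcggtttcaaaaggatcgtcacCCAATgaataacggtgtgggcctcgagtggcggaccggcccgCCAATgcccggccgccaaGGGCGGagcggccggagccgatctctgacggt
Nup98, second start, chr7:102209868-102210117, minus strand: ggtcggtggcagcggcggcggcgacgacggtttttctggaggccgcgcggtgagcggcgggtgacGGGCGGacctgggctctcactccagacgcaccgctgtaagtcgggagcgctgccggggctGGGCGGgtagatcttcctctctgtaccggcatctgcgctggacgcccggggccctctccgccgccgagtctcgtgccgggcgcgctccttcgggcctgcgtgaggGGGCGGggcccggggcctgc
Nup62, chr7:44815838-44816087, plus strand: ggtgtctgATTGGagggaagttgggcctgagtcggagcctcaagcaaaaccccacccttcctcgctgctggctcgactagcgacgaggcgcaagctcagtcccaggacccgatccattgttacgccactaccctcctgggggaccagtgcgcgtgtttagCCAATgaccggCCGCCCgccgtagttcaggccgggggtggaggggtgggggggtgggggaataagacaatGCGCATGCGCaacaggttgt
Nup37, chr10:88146742-88146991, plus strand: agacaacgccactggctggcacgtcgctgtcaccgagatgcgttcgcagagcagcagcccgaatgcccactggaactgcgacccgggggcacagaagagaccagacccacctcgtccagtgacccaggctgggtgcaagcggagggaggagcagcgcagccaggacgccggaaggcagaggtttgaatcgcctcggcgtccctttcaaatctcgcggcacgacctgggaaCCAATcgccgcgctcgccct
The first Nup98 window holds 2 CCAAT boxes and 1 GC box, and the second holds 3 GC boxes and no CCAAT box. The Nup62 window holds the NRF1 motif close to the start, together with 2 CCAAT boxes and 1 GC box. The printed Nup37 window holds 1 CCAAT box, as does the second. No TATA box letters occur in any of the 4.

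Windows were found for 22 of the 26 genes, 25 windows in all, with none for Nup43, Nup85, Nup210l or Seh1l. Their median GC content was 64%, against 52.4% over the 32851 windows of all genes in the table. The GC box letters were in 60% of member windows and 32.7% of all windows. Matches to the ETS site were in 16% (Aaas, Nup155, Nup54 and Sec13) against 2.88%, and those to the NRF1 motif in 12% (Nup107, Nup50 and Nup62) against 3.74%. The CCAAT box was in 40% against 33.8%, and the TATA box in 12% against 12.4%. These are matches of letters, not tested sites, and the windows of 1 gene can share sequence.

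On the cytoplasmic face, Nup214 and its partner Nup88 receive exported mRNA, and Ranbp2 forms the filaments that bind Ran and attach the small modifier SUMO. At their main probe sets all 3 genes had a higher mean in high mice than in low mice, as did 52.1% of all tested probe sets. None of the 3 passed the test or an unadjusted p of 0.05. Nup214 (1434351_at) had levels of 7.68, 7.91, 7.73, 7.93 and 7.68 in high mice. Its medium mice had a lowest of 7.54, a median of 7.76 and a highest of 7.85, and its low mice a lowest of 7.19, a median of 7.68 and a highest of 7.91. The groups overlapped, and low replicate 5 was the lowest of the low mice. Medium minus low was 0.11 ± 0.07 (SE, adjusted p = 0.998), with 11 of 12 medium mice above the low mean, and 0.0458 without low replicate 5. The second Nup214 probe set gave 0.12 ± 0.08 (SE) in high minus low. Nup88 averaged 8.83 ± 0.05 in high, 8.80 ± 0.11 in medium and 8.76 ± 0.07 in low mice (SD, n = 5, 12 and 8, as for the means that follow). Ranbp2 averaged 9.88 ± 0.08 in high, 9.86 ± 0.11 in medium and 9.85 ± 0.20 in low mice, and its 3 tested probe sets gave 0.03, -0.03 and -0.01 in high minus low.

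The outer ring is built from copies of the Y-shaped Nup107 to Nup160 complex, and some of its proteins also work outside the pore, Sec13 in the coat of vesicles leaving the endoplasmic reticulum, and both Sec13 and Seh1l in a complex that passes amino acid signals to the growth kinase mTOR. Of its 8 genes, 7 had the higher mean in high mice in both comparisons, with a median difference of 0.07 against low and 0.08 against medium mice. Over all tested probe sets, 52.1% had the higher mean in high than in low mice, and 51.9% in high than in medium mice. Nup37 and Nup43 were under an unadjusted p of 0.05 in both comparisons, and Sec13 in high minus medium. That threshold was met by 8.16% of all probe sets in high minus low and 13.2% in high minus medium.

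Nup37, a beta-propeller protein at the side of the Y, had levels of 6.91, 7.24, 7.14, 7.22 and 7.02 in high mice. Medium mice had a lowest of 6.70, a median of 6.90 and a highest of 7.08, and low mice a lowest of 6.74, a median of 6.88 and a highest of 7.12. Of the 5 high mice, 3 lay above every medium and every low mouse, and the lowest of them lay among both groups. High minus low was 0.18 ± 0.08 (SE, adjusted p = 0.559, exact permutation p = 0.0567) and high minus medium was 0.21 ± 0.07 (SE, adjusted p = 0.212, permutation p = 0.00407). Nup37, Nup43, Nup62, Nup210 and Ndc1 were picked for small unadjusted p-values in these same data. Their permutation p-values, here and below, are therefore no independent support.

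For Nup43, another propeller of the same complex, the high mice had 6.20, 6.09, 6.25, 6.56 and 6.19. Medium mice had a lowest of 5.80, a median of 5.99 and a highest of 6.28, and low mice a lowest of 5.80, a median of 6.05 and a highest of 6.29. Only 1 high mouse lay above all medium and low mice, while all 5 lay above both means. High minus medium was 0.26 ± 0.08 (SE, adjusted p = 0.183, permutation p = 0.00265) and high minus low was 0.19 ± 0.08 (SE, adjusted p = 0.578, exact permutation p = 0.0559), and 0.12 without high replicate 4. Inconsistent mice had a wider range than these 3 groups at this probe set, with a lowest of 5.47 and a highest of 6.53. The second Nup43 probe set, 1432187_at, was too dim to be tested, and its means had the other direction. It averaged 5.58 ± 0.24 in high, 5.69 ± 0.19 in medium and 5.73 ± 0.15 in low mice (SD).

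At their main probe sets the other outer ring genes differed from low mice by less than Nup37 and Nup43. Sec13 averaged 8.69 ± 0.04 in high, 8.55 ± 0.11 in medium and 8.62 ± 0.11 in low mice, with a high minus medium difference of 0.14 ± 0.06 (SE, adjusted p = 0.316). Nup160, a scaffold arm of the Y, averaged 7.29 ± 0.08 in high, 7.19 ± 0.14 in medium and 7.15 ± 0.14 in low mice, and Nup107, in its stem, averaged 7.13 ± 0.22 in high, 7.10 ± 0.19 in medium and 7.11 ± 0.15 in low mice. Nup133, which joins neighbouring Y complexes, was the 1 gene of the ring with a lower mean in high mice: it averaged 7.62 ± 0.05 in high, 7.72 ± 0.10 in medium and 7.69 ± 0.07 in low mice. Its 4 tested probe sets gave -0.06, 0.12, 0.03 and -0.05 in high minus low. Nup85 averaged 7.56 ± 0.12 in high, 7.51 ± 0.12 in medium and 7.51 ± 0.14 in low mice, and its second probe set gave 0.18 ± 0.11 (SE) in high minus low. Seh1l averaged 9.34 ± 0.03 in high, 9.31 ± 0.07 in medium and 9.30 ± 0.10 in low mice, and its dimmest tested probe set, 1419967_at, gave 0.36 ± 0.17 (SE, adjusted p = 0.608), with an SD of 0.36 among high and 0.45 among low mice, where the main probe set gave 0.04 ± 0.05 (SE).

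The inner ring (Nup205, Nup188, Nup155 and Nup93 here) links the membrane to the central channel. At the main probe sets, all 4 genes had the higher mean in high mice in high minus medium and 3 of 4 in high minus low. The shares over all tested probe sets were 51.9% and 52.1%. None of the 4 had an unadjusted p under 0.05. Nup188 averaged 5.95 ± 0.17 in high, 5.81 ± 0.26 in medium and 5.75 ± 0.19 in low mice. Nup205, its close relative, averaged 7.73 ± 0.08 in high, 7.63 ± 0.13 in medium and 7.60 ± 0.16 in low mice, and Nup93, which holds the channel proteins in place, averaged 7.60 ± 0.13 in high, 7.55 ± 0.07 in medium and 7.55 ± 0.10 in low mice. Nup155 averaged 7.41 ± 0.12 in high, 7.38 ± 0.10 in medium and 7.48 ± 0.24 in low mice. Its second probe set (1418727_at) gave 0.12 ± 0.08 (SE) in high minus low and 0.19 ± 0.07 (SE) (unadjusted p = 0.0142, adjusted p = 0.269) in high minus medium.

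Nup210, Ndc1 and Pom121 are the membrane-spanning proteins that anchor the pore. Nup210, which in mouse cell lines is known for a role in muscle and nerve cell differentiation, had the largest difference in high minus low at a main probe set. Its levels were 6.67, 6.73, 7.18, 7.12 and 6.85 in high mice. Medium mice had a lowest of 6.26, a median of 6.70 and a highest of 7.24, and low mice a lowest of 6.35, a median of 6.62 and a highest of 6.77. In 3 of 5 high mice the level was above every low mouse, and medium mice covered the whole range of the high ones. High minus low was 0.30 ± 0.12 (SE, adjusted p = 0.554, exact permutation p = 0.00932). The difference was 0.34 in spike-in group 2 alone and 0.04 in group 3 alone, where there was 1 high array.

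Ndc1, which anchors both the scaffold and Aaas, had a lower mean in high than in medium mice. High mice had 6.45, 6.66, 6.62, 6.39 and 6.65, against a lowest of 6.47, a median of 6.75 and a highest of 7.03 in medium mice. The groups overlapped, with 2 high mice below every medium mouse and all 5 below the medium mean. The difference was -0.18 ± 0.07 (SE, adjusted p = 0.301, permutation p = 0.0457). Low mice, with a lowest of 6.48, a median of 6.64 and a highest of 6.71, also lay below medium mice in the mean, and medium minus low was 0.12 ± 0.06 (SE, adjusted p = 0.998). The other 2 tested Ndc1 probe sets gave -0.13 and 0.09 in high minus medium. Pom121 averaged 9.34 ± 0.25 in high, 9.48 ± 0.25 in medium and 9.44 ± 0.25 in low mice, and both of its probe sets had lower means in high mice.

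**Figure D3:**
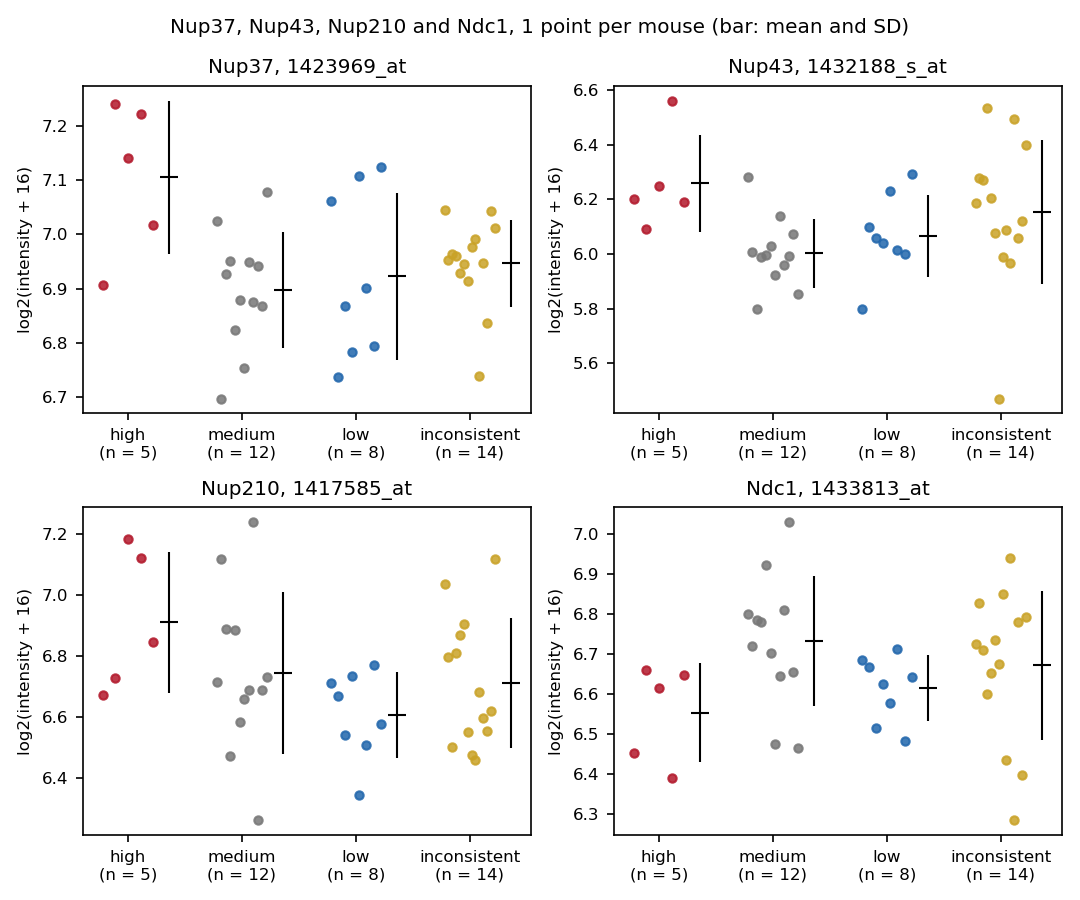
Level in log2(intensity + 16) at the main probe sets of Nup37, Nup43, Nup210 and Ndc1, 1 point per mouse, in high, medium, low and inconsistent mice, with the mean and SD as a bar beside each group. For Nup37, 3 high mice lie above every medium and low mouse, and for Ndc1 the high mean (6.55) lies below the medium mean (6.73), with overlap in every panel.

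In the central channel, Nup62 and Nup54 form the repeat-bearing core, and Rae1 binds Nup98. Nup62 had the smallest unadjusted p of all main probe sets in high minus medium. At that probe set (1447905_x_at) high mice had levels of 9.54, 9.68, 9.89, 9.75 and 9.83, and medium mice a lowest of 9.30, a median of 9.47 and a highest of 9.65. All high mice but 1 lay above every medium mouse. The difference was 0.27 ± 0.07 (SE, adjusted p = 0.142, permutation p = 0.000600). Low mice had a lowest of 9.34, a median of 9.52 and a highest of 9.88 and overlapped the high mice, with a high minus low difference of 0.17 ± 0.08 (SE, adjusted p = 0.581) and a medium minus low difference of -0.10 ± 0.06 (SE, adjusted p = 0.998), which was -0.0548 without low replicate 8. In spike-in group 3 alone, where there was 1 high array, high minus low was -0.03 and high minus medium was 0.08.

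The other 3 tested Nup62 probe sets showed no such order. In high minus medium they gave 0.03 ± 0.07 (1415926_at), -0.07 ± 0.08 (1415925_a_at) and -0.04 ± 0.09 (1438917_x_at, all SE), with adjusted p-values of 0.880, 0.757 and 0.872. The suffix _x_at marks probe sets that can share sequence with unrelated transcripts, and 2 of the Nup62 probe sets carry it. Which transcripts the _s_at probe sets read, among them the main Nup43 one and those of Nup54 and Nup153, was not analysed. The difference at Nup62 was therefore seen at 1 of 4 tested probe sets.

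**Figure D4:**
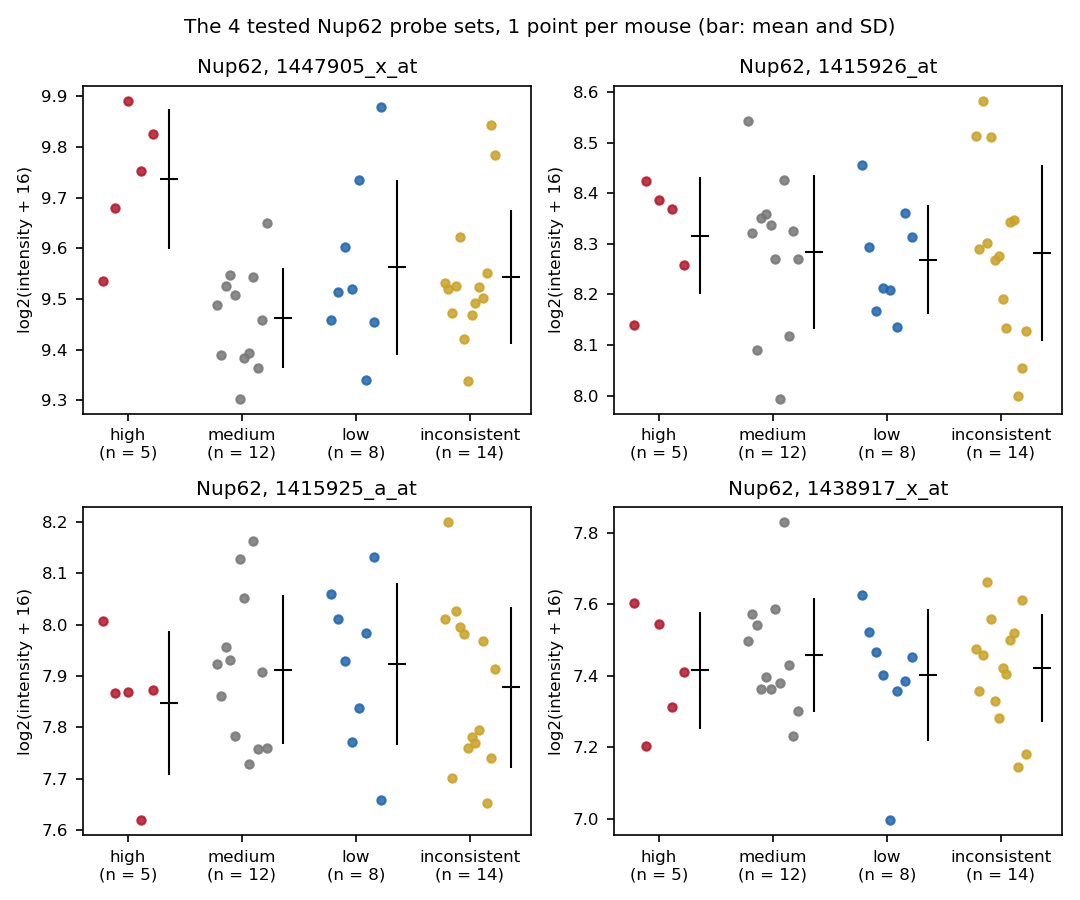
Level in log2(intensity + 16) of the 4 tested Nup62 probe sets, 1 point per mouse, in high, medium, low and inconsistent mice, with the mean and SD as a bar beside each group. At 1447905_x_at the high mean (9.74) lies above the medium (9.46) and low (9.56) means, and at the other probe sets the group means differ by less than their SD.

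Nup54 averaged 7.94 ± 0.31 in high, 8.10 ± 0.16 in medium and 8.13 ± 0.15 in low mice at its main probe set, also an _x_at one. Its other probe sets gave 0.12 (1433580_at) and 0.31 ± 0.10 (1459651_s_at, SE, adjusted p = 0.189) in high minus medium, where the main one gave -0.16 ± 0.10 (SE). Rae1 averaged 8.80 ± 0.09 in high, 8.87 ± 0.16 in medium and 8.84 ± 0.13 in low mice.

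Probe sets of the nuclear basket genes also differed in direction. Nup153 docks transport complexes and binds chromatin, and Nup50 works with importins in cargo release. At its main probe set (1452176_at) Nup153 averaged 8.86 ± 0.11 in high, 8.93 ± 0.12 in medium and 8.93 ± 0.08 in low mice. The second, 1441733_s_at, was singled out after its values were seen: high mice had levels of 7.30, 7.35, 7.63, 7.29 and 7.32, against a lowest of 6.78, a median of 7.09 and a highest of 7.17 in low mice. The 2 groups did not overlap. High minus low was 0.33 ± 0.09 (SE, adjusted p = 0.490). Medium mice, with a lowest of 6.80, a median of 7.01 and a highest of 7.38, reached into the high range, and high minus medium was 0.34 ± 0.09 (SE, adjusted p = 0.134). High replicate 3 stood apart from the other high mice, and leaving out any 1 array gave 0.26 to 0.35 in high minus low. Nup50 averaged 7.99 ± 0.09 in high, 7.83 ± 0.15 in medium and 7.83 ± 0.17 in low mice at its main probe set, and its 3 tested probe sets gave 0.16, -0.02 and 0.18 in high minus medium.

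Aaas, the protein lost in human triple A syndrome, averaged 6.42 ± 0.19 in high, 6.57 ± 0.15 in medium and 6.49 ± 0.20 in low mice. Its high minus medium difference was -0.15 ± 0.09 (SE, adjusted p = 0.489).

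Probe sets of the same gene often disagreed in sign. Of 14 pore genes with several tested probe sets, 10 had probe sets on both sides of 0 in high minus low, 9 in high minus medium and 7 in medium minus low. Over all 5305 genes with several tested probe sets, both signs were seen in 51.2%, 50.3% and 55.7%. The median range between the probe sets of a pore gene was 0.19, 0.21 and 0.06, beside 0.12, 0.13 and 0.09 over all such genes, where genes with more probe sets have wider ranges. The widest was that of Nup98, 0.49 in high minus low and 0.48 in high minus medium. Nup85, Nup214 and Pom121 had all their tested probe sets on 1 side of 0 in both comparisons with high mice.

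**Figure D5:**
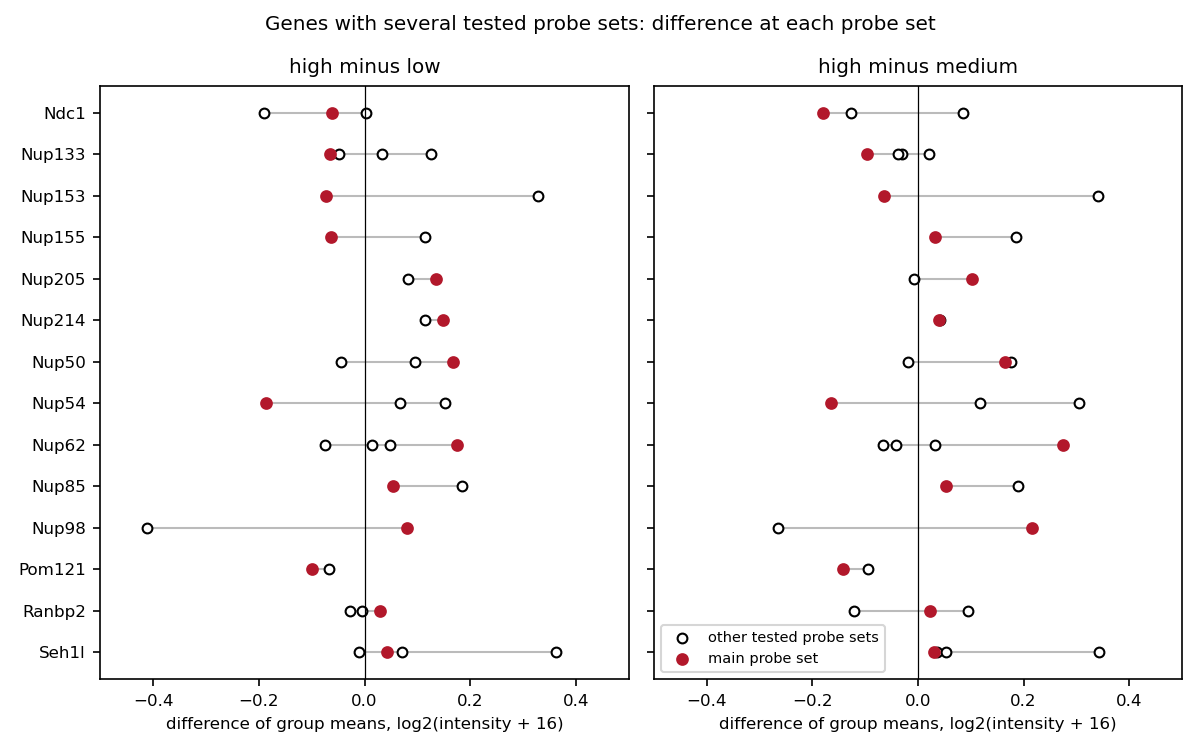
Difference of group means in log2(intensity + 16) at each tested probe set of the 14 pore genes with several, for high minus low (left) and high minus medium (right); filled points are the main probe set, open points the others, and lines join the probe sets of a gene. For Nup98 in high minus low the points lie at 0.08 and -0.41, and for Nup153 at -0.07 and 0.33.

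The 14 inconsistent mice form a further group of the labels, and each class was set against them in 1 fit of 39 arrays. In high minus inconsistent, 0 of 49 members passed against 0.00444% of all probe sets, and 8 were under an unadjusted 0.05 (7 higher, 1 lower in high mice), 16.3% against 10.9%. The smallest adjusted p was that of the second Nup155 probe set, 1418727_at, which averaged 6.36 ± 0.10 in high mice and 6.07 ± 0.12 in inconsistent mice (SD, n = 5 and 14), a difference of 0.29 (adjusted p = 0.102), while the main Nup155 probe set gave 0.05. At the main probe sets, Nup62 gave 0.19, Nup188 0.26, Nup37 0.16 and Sec13 0.13, all with an unadjusted p under 0.05 and adjusted p-values of 0.302 to 0.402. The second Nup98 probe set gave -0.21 (adjusted p = 0.375), and inconsistent mice had a lowest of 6.18, a median of 6.58 and a highest of 6.87 there, a range that overlapped both the high and the low mice.

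In medium minus inconsistent, 0 members passed and 0% of all probe sets, and 4 members were under an unadjusted 0.05 (3 higher, 1 lower), 8.16% against 4.72%. In low minus inconsistent, 0 passed and 0% of all, and 5 were under an unadjusted 0.05 (4 higher, 1 lower), 10.2% against 4.22%. None of these was the main probe set of its gene. The second Nup98 probe set gave 0.20 in low minus inconsistent (adjusted p = 0.997). These comparisons share the same inconsistent mice.

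Genes that work with the pore were read from lists, each at its main probe set, and 0 genes in any list passed the adjusted threshold. Of 24 tested transport receptors (importins and exportins), 1 was higher and 1 lower in high than in low mice at an unadjusted p under 0.05. Over all probe sets 8.16% met that threshold. The median difference of the receptors was 0.01. The import receptor Ipo11 gave 0.20 ± 0.08 (SE, adjusted p = 0.554), and Xpo6, which exports actin, gave -0.19 ± 0.07 (SE, adjusted p = 0.544). Of 5 tested Ran cycle genes, which give transport its direction, Ranbp3 gave -0.25 ± 0.08 (SE, adjusted p = 0.490) and Ranbp1 gave 0.14 ± 0.06 (SE, adjusted p = 0.569), while Ran itself gave 0.03.

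Of 15 tested mRNA export genes, 1 was under an unadjusted 0.05 in high minus low, as were 8.16% of all probe sets. That gene was the adaptor Alyref at 0.17 ± 0.08 (SE, adjusted p = 0.581). The export receptor Nxf1 gave 0.15 ± 0.07 (SE, adjusted p = 0.617). In high minus medium, 3 of the 15 were higher and 2 lower in high mice at an unadjusted p under 0.05, a threshold that 13.2% of all probe sets met, and the median over the list was 0.02. Of 12 nuclear envelope and lamina genes, 9 had the higher mean in high than in low mice, with a median of 0.06, and 1 had an unadjusted p under 0.05, the inner membrane protein Lemd3 at -0.15 ± 0.06 (SE, adjusted p = 0.580). Over all tested probe sets, 52.1% had the higher mean in high than in low mice, and 8.16% had an unadjusted p under 0.05. Of 5 tested pore genes outside the naming rule, none was under an unadjusted 0.05 in any comparison, and the median was 0.02 in high minus low.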

How the data were processed

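Expression was measured in hippocampal RNA of 41 mice on 1-colour Affymetrix arrays. The authors' deposited values are probe set intensities on a linear scale, judged from their range (0.0112 to 13549 intensity units). Partek and RMA are named, with no version, per the submitters' processing notes, which do not say how they were used. Log2 values had been assumed in the design, so the intensities were first quantile-normalized across all 41 arrays, then 16 was added and log2 taken. The offset of 16 was set once the scale was known.

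Of 45101 probe sets, 64 were array controls. The brighter part of the other 45037 by mean level, 22519 probe sets, was tested. limma 3.58.1 in R 4.3.3 fitted the 25 high, medium and low arrays with 1 mean per group, and 39 arrays for comparisons with inconsistent mice. P-values were adjusted over all 22519 probe sets by Benjamini-Hochberg with a threshold of 0.05. The 2 mice with incomplete data entered no test. For 19 combinations of described member and comparison, a two-sided permutation test of the group means was also run (exact, or 100000 resamples where a group had 10 or more mice), without adjustment, on members picked partly for small p-values. The labels do not say whether RNA of several mice was processed together. The p-values set group differences against the spread between these mice's arrays, which can also hold differences in processing.

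Every member was named. Nup98 and, per comparison, the 4 genes with the smallest unadjusted p at the main probe set were described in full. Members, gene lists and tests were chosen with earlier results of these data known. Platform annotation supplied the symbols (1 for 34945 probe sets, several for 932, none for 9160), and all 67 members were found in the RefSeq gene table by Entrez identifier with 0 symbols changed. Sequences came from RefSeq, GRCm38.p6. The number of arrays limits the precision. The code was tested on simulated data. Alternatives covered the filter, offset, normalization, variance model, array weights, choice of probe set, groups in the fit, replicate number, spike-in group, arrays bright in choroid plexus markers, a rank-sum test and each array left out. Replicate numbers in the labels did not pair mice: deviations of same-numbered mice in different groups had a median correlation of -0.02 over 18 pairs.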

Additional observations from a re-analysis of the deposited data

Results flagged for a closer look

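The 5 high and the 8 low mice were each checked at main or described probe sets, which gave 54 checks. In 6 of them a single mouse stood far from the rest of its group, by the gap to its nearest neighbour relative to the group's range (Dixon's test at 95%). Chance gives such a result in about 1 of 20 separate groups, but these checks reuse the same mice. Among high mice, Nup133 was 7.71 in replicate 1, with the next at 7.61, and the second Nup153 probe set (1441733_s_at) was 7.63 in replicate 3, with the next at 7.35. Low replicate 5 stood high at 3 pore genes: Nup160 at 7.46 (next 7.20), Ranbp2 at 10.30 (next 9.91) and the second Nup98 probe set (1439154_at) at 7.12 (next 6.85). Before normalization the array of low replicate 5 had the lowest median intensity of all (22.4), and its part in these values was not tested. Low replicate 7 had 6.15 for Nup188, with the next at 5.81.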

How the results depend on the processing

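Across 47 alternatives, 25 of which left out 1 array each, no member passed the adjusted threshold, except that array weights gave 2 in high minus medium (Nup62, 1447905_x_at, at 0.29 with an adjusted p of 0.0242, and Nup153, 1441733_s_at, at 0.33 with 0.0432), where 354 of all probe sets passed instead of 7. Leaving out each array gave 0 members throughout, medians of 0.05 to 0.08 in high minus low, 0.03 to 0.07 in high minus medium and -0.01 to 0.02 in medium minus low, and 0 to 16 of all probe sets in high minus medium. With arrays centred on their medians the median of the members was 0.10 in high minus low and 0.0439 in medium minus low. The median of all probe sets was then 0.041 and 0.0257. With no normalization it was 0.00092, -0.14 and 0.12 for high minus low, high minus medium and medium minus low, where the median of all probe sets lay at -0.06, -0.17 and 0.11, and Nup62 in medium minus low was 0.0172. Averaging a gene's probe sets turned Nup98 to -0.17 in high minus low and -0.0237 in high minus medium, by construction, and Ndc1 to -0.0096 in medium minus low. In spike-in group 3 alone, where there was 1 high array, high minus low was -0.0252 for Nup62 and -0.013 for the main Nup98 probe set. The Nup98 value was -0.010 without arrays bright in choroid plexus markers. Other causes of these shifts were not tested. With the replicate block, 0 members passed and the medians were 0.05, 0.06 and 0.02, although the numbers do not pair mice. Spike-in group 1 held no high mice. The exact rank-sum test gave no median and called 0 probe sets in high minus low, where the smallest adjusted p of a member was 0.310. Array number, and dim signal at second probe sets, limit what could be seen.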
